A study of Homo sapiens with 12 samples.

Results

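Chromosome 7 outside the HOXA cluster was described here in the renal carcinoma lines 786 and 769, from tags at CCGG sites. Its members are all listed CCGG sites on chromosome 7 of hg19, apart from 400 sites between positions 27130000 and 27255000, which hold the HOXA genes. They number 58334 of the 1019951 sites with a tag anywhere in the series, 23504 on the short arm 7p (below 60 Mb) and 34830 on the long arm 7q. DNA from each line came from 2 samples grown with ascorbic acid (AA) and 1 control, and every DNA sample was cut once with HpaII and once with MspI, giving 12 libraries. The labels call both lines clear cell renal cell carcinoma lines, give no dose or time of AA, and do not say how the samples numbered AA1 and AA2 differ. They were taken as replicates, and the errors below hold the spread of these samples, which may be technical.

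MspI cuts CCGG whether or not its inner cytosine is methylated, so the share of MspI tags in a region follows the amount of DNA there. HpaII cuts only where that cytosine is unmodified. The HpaII share of a region over its MspI share, called the ratio below, is 1 at the mean of chromosomes 1 to 22 and X. A high ratio means little methylation relative to the rest of the same DNA sample. Being made of shares, the ratio cannot show a change of the overall level, and a rise in some regions lowers it in others. In vertebrate genomes most CpG cytosines are methylated, while clusters of CpG at promoters, the CpG islands, are mostly not. TET enzymes, which need ascorbate for full activity, oxidise the methyl mark. Extra copies of chromosome 7 or of its arms are common in kidney cancers, and the chromosome carries growth factor genes such as EGFR, MET and PDGFA, the cell cycle kinase gene CDK6 and the Polycomb methyltransferase gene EZH2.

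The finest regions of the chromosome that could be tied to genes were promoter windows of RefSeq (GRCh38.p14), placed on the hg19 site list by their CCGG spacing. Shown are the 250 bases before the gene start for the promoters whose ratio differed between the lines (VWC2 and GALNT17) and for the promoter among the listed growth factor genes that moved with AA in 769 (EGFR). All lie on the plus strand, at chr7:55018767-55019016 for EGFR, chr7:49773388-49773637 for VWC2 and chr7:71131894-71132143 for GALNT17 in GRCh38.p14. Capitals mark the CCGG sites that both enzymes can cut, 2 in the EGFR stretch, 5 in that of VWC2 and 6 in that of GALNT17.
EGFR: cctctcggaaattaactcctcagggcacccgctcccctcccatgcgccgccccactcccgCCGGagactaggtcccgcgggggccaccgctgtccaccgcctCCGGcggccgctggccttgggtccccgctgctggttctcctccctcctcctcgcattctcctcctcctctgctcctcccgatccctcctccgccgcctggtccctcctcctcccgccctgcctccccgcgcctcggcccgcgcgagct
VWC2: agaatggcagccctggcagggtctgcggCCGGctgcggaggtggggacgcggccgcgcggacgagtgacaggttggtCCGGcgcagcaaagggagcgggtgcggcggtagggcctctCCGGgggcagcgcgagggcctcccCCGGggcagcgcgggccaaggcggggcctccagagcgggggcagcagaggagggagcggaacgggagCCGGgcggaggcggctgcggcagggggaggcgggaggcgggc
GALNT17: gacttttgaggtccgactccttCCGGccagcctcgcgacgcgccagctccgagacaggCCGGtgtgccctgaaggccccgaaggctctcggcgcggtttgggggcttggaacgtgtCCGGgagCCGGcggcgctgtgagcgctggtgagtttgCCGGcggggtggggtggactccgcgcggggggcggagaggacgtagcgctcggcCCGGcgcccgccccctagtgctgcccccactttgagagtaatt

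The MspI libraries held between 214125 and 707035 tags on chromosome 7. HpaII tags there numbered 813195 and 277873 with AA, against 12644 in the control of 786, and 343055 and 158139 with AA, against 270331 in the control of 769. HpaII tags fell on 16486 and 17691 chromosome 7 sites with AA, against 2481 in the control of 786, and on 15177 and 7327 with AA, against 5747 in the control of 769. For HpaII, every AA contrast below therefore sets libraries with more listed sites against controls with fewer, and the part of this difference in the results was not tested beyond the thinned libraries. A single site at position 141504822 held the most chromosome 7 tags in all 12 libraries. Among HpaII libraries its part went from 1.57% of them in the 769 control to 21.4% in 786 AA replicate 1. No other chromosome 7 site held more than 1556 tags in a library, so the main sums over the chromosome are given with and without it. Tag numbers are rounded, so 0 tags can hide a fraction of a tag.

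7q took a larger share of the DNA in 786 than in 769, and 7p as a whole did not. Chromosome 7 held 7.41, 7.50 and 7.63% of the MspI tags in the 3 samples of 786, against 5.90, 6.17 and 6.19% in the 3 of 769. On 7q the shares were 4.90, 5.01 and 5.15% in 786, against 3.30, 3.50 and 3.64% in 769, and no sample of 786 lay within the range of 769. On 7p they were 2.51, 2.49 and 2.48% in 786, against 2.59, 2.67 and 2.55% in 769. Averages on 7q were 5.02% ± 0.12 in 786 and 3.48% ± 0.17 in 769, and those on 7p were 2.49% ± 0.015 and 2.60% ± 0.063 (SD, n = 3 each). Without the site of most tags the averages on 7q were 4.71% ± 0.10 in 786 and 3.18% ± 0.072 in 769. Those of the chromosome were then 7.21% ± 0.10 and 5.80% ± 0.056. In a quasi-likelihood fit (edgeR) over 24 features (22 autosomes and X, with HOXA apart), the log2 fold of chromosome 7 in 786 over 769 was 0.30 ± 0.025 (SE), with an adjusted p of 2.6e-05 by edgeR. With the arms apart, the log2 fold of 7q was 0.53 ± 0.03, an increase of 1.44-fold (edgeR adjusted p = 1.1e-06) and the highest of the 25 features in that fit. The log2 fold of 7p was -0.06 ± 0.02 (edgeR adjusted p = 0.025), a call that 4 of the alternative settings did not keep, and that was lost with any 1 of the 6 samples left out. The AA term of these fits passed for neither arm, with log2 folds of 0.03 ± 0.02 on 7p (edgeR adjusted p = 0.42) and -0.08 ± 0.03 on 7q (edgeR adjusted p = 0.18). The mean 7q share with AA was 0.962-fold that of the control in 786 and 0.934-fold in 769. Without the site of most tags it was 1.02-fold and 1.00-fold.

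**Figure D1:**
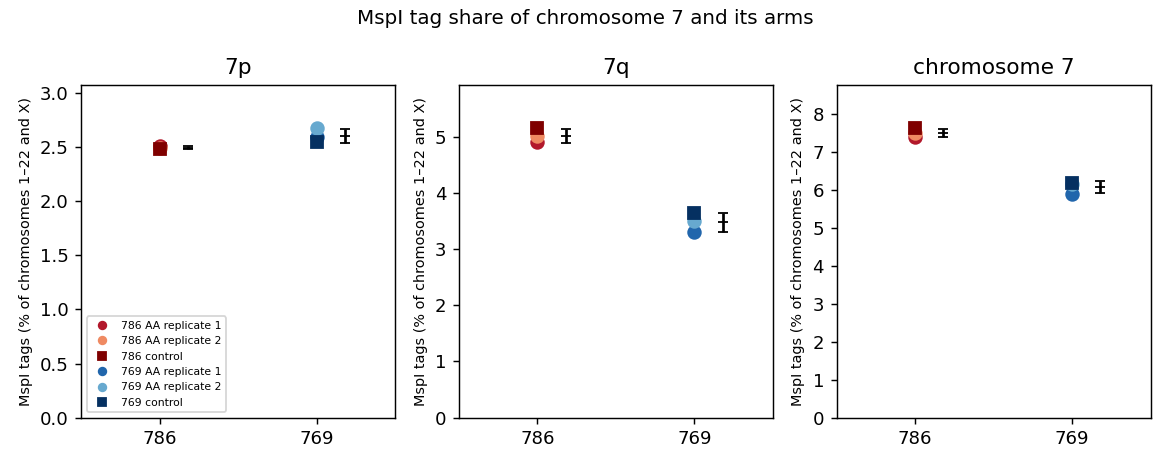
MspI tags on 7p, 7q and the whole of chromosome 7 outside HOXA, as a percentage of the tags on chromosomes 1 to 22 and X, with 1 point per DNA sample and a bar for the mean ± SD of each line (n = 3). The 786 samples sit above the 769 samples on 7q and on the chromosome, and below them by a small margin on 7p.

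The arms also differed within a sample. The log2 ratio of 7p over 7q MspI tags was -0.96, -1.01 and -1.05 in 786, against -0.35, -0.39 and -0.52 in 769, a difference of -0.59 (exact two-sided permutation of line labels, p = 0.1, the smallest that 3 against 3 allows). Leaving out the site of most tags gave a difference of -0.63 with the same p.

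The step between the lines lay at the arm border. Of 155 tested 1 Mb bins on the chromosome, 89 had more MspI tags in 786 than in 769 and 2 had fewer (edgeR, adjusted p under 0.05), against 12.3% and 13.1% of all 2862 tested bins called in these directions. On 7q, 85 of 97 bins were called higher and none lower, and the fitted log2 fold was above 0 in all 97, from 0.05 to 1.33 with a median of 0.65. On 7p, 4 of 58 bins were called higher and 2 lower, and the fitted log2 fold was above 0 in 45, with a median of 0.17. The median over all tested bins was 0.02. Called bins of 7q formed 10 runs of at least 4 adjoining bins, the first from 62 to 68 Mb and the last from 147 to 159 Mb, and the longest, of 20 bins, from 89 to 109 Mb. No bin between 58 and 62 Mb had enough tags to be tested.

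**Figure D2:**
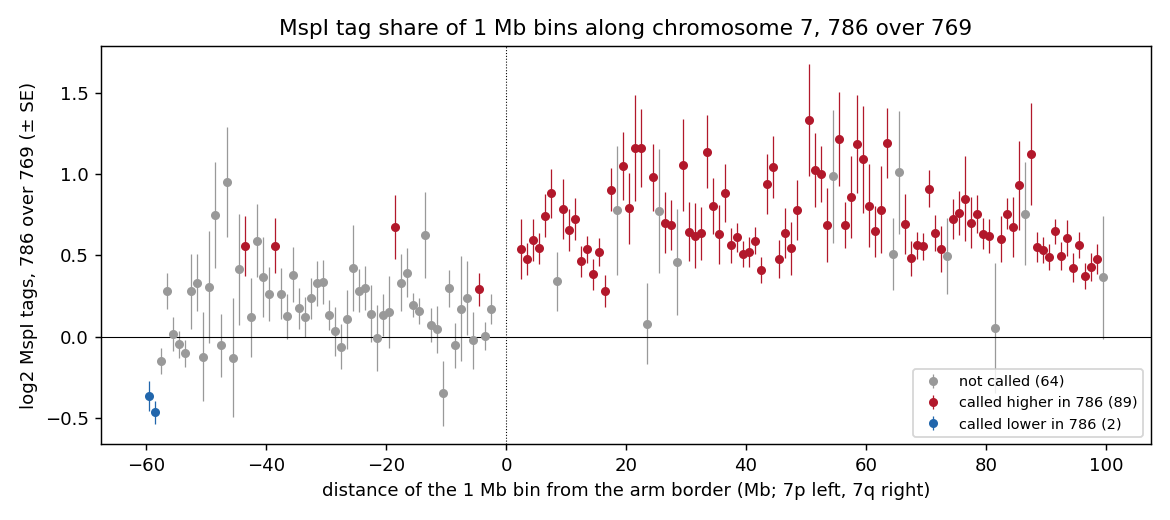
Log2 fold of MspI tags in 786 over 769 (± SE, edgeR) for the 155 tested 1 Mb bins of chromosome 7, placed by their distance from the arm border at 60 Mb. Nearly all bins right of the border lie above 0 and are called higher in 786, while those at the far left end are the 2 called lower.

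The largest differences on 7q were near 2-fold and fell in bins with few tags. The bin from 110 to 111 Mb held 0.00486, 0.00426 and 0.00286% of the MspI tags in 786, against 0.00156, 0.00184 and 0.00128% in 769 (log2 fold 1.33 ± 0.35, edgeR adjusted p = 0.0093). In the bin from 123 to 124 Mb the shares were 0.0145, 0.0116 and 0.0116% in 786, against 0.00533, 0.00700 and 0.00435% in 769 (log2 fold 1.19 ± 0.22, edgeR adjusted p = 0.00081). The other 6 of the 8 largest called rises, at 81, 82, 93, 115, 118 and 147 Mb, had log2 folds from 1.12 to 1.22. Only bins where the lines did not overlap could be among these 8. The 12 bins of 7q that were not called included that of the site of most tags, from 141 to 142 Mb, at a log2 fold of 0.05 ± 0.40. The bin from 83 to 84 Mb, at 0.08 ± 0.25, was also among them.

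The tip of 7p went the other way. The bin from 1 to 2 Mb held 0.336, 0.348 and 0.359% of the MspI tags in 786, against 0.467, 0.485 and 0.488% in 769 (log2 fold -0.47 ± 0.07, edgeR adjusted p = 0.00026). The first megabase held 0.339, 0.260 and 0.287% in 786, against 0.373, 0.399 and 0.367% in 769 (log2 fold -0.37 ± 0.09, edgeR adjusted p = 0.0070). The bin from 2 to 3 Mb held 0.236, 0.265 and 0.266% in 786 and 0.284, 0.283 and 0.283% in 769, but the call was missed (log2 fold -0.15 ± 0.08, edgeR adjusted p = 0.19). The 4 bins of 7p called higher in 786 started at 16, 21, 41 and 55 Mb, with log2 folds of 0.56, 0.56, 0.67 and 0.29.

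On the other chromosomes summed, MspI libraries of 786 had fewer tags at crowded CCGG sites. Sites with 8 to 15 reference CCGG in 1 kb took 21.1, 21.1 and 21.5% of the tags in 786, against 23.0, 24.7 and 22.9% in 769. Shares were therefore also compared within classes of CCGG density, a choice made after the data were seen and given with no test. Matched in this way, 7q came to 1.50-fold in 786 over 769, and 7p to 0.979-fold with the lines overlapping. Each 10 Mb window of 7q lay between 1.44- and 1.87-fold, highest from 110 to 120 Mb. On 7p the window from 0 to 10 Mb was at 0.874-fold and the first 2 Mb at 0.781-fold, while the windows from 20 to 60 Mb lay between 1.10- and 1.21-fold, and none of these overlapped between the lines.

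AA left no called difference in MspI tags on the chromosome. The AA term of the 1 Mb fit called 0% of the 2862 bins by edgeR, and 6 of the 155 chromosome 7 bins (3.87%) had an unadjusted p under 0.05, against 3.67% of all bins, while DESeq2 called none on chromosome 7. The median log2 fold with AA was 0.012 over the chromosome 7 bins and -0.0047 over all bins tested.

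Summed over each arm, the ratio of 7p lay below that of 7q, that is, toward more methylation, in every sample. Without the site of most tags the ratio of 7p was 0.786, 0.830 and 0.860 in 786 and 0.761, 0.675 and 0.793 in 769 (AA replicates 1 and 2, then the control). On 7q it was 1.03, 1.05 and 1.06 in 786 and 1.02, 1.04 and 1.02 in 769. The 6 values of 7p lay below all 6 of 7q, and the whole chromosome came to 0.942, 0.978 and 0.988 in 786 and 0.907, 0.869 and 0.919 in 769. The low ratio did not run along all of 7p. From 0 to 10 Mb it was 0.678, 0.725 and 0.672 in 786 and 0.673, 0.601 and 0.671 in 769. From 20 to 30 Mb it was 1.19, 1.22 and 1.40 in 786 and 1.20, 1.12 and 1.40 in 769. With the site included, 7q reached 1.33, 1.10 and 1.12 in 786 and 1.07, 1.19 and 0.914 in 769, so that site alone set much of the spread. Between lines the log2 ratio of the chromosome was 0.21 higher in 786 with the site and 0.11 higher without it (exact two-sided permutation, p = 0.1 both times, the smallest possible).

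No difference in the balance of the arms passed a test. The log2 ratio of 7p over 7q differed by -0.02 between 786 and 769 with the site of most tags (exact permutation, p = 1) and by 0.13 without it (exact permutation, p = 0.2). With AA it differed by -0.34 from control with the site (exact permutation within lines, p = 0.222) and by -0.11 without it (exact permutation within lines, p = 0.333), where 9 arrangements allow no p under 0.111. For the whole chromosome the AA difference was 0.09 with the site and -0.05 without it (exact permutation within lines, p = 0.444 and 0.222).

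Along the chromosome the ratio was low at the tip of 7p and beside the centromere. In the first 5 Mb it was 0.607, 0.649 and 0.599 in 786 and 0.581, 0.506 and 0.555 in 769. Within 5 Mb of the arm border it was 0.678, 0.699 and 0.713 in 786, against 0.498, 0.401 and 0.517 in 769, and the lines did not overlap there. The last 5 Mb of 7q differed as well, with 0.993, 1.01 and 1.33 in 786, against 0.747, 0.669 and 0.649 in 769. Between 80 and 140 Mb the order was the reverse, and in each of the 6 windows of 10 Mb every sample of 786 lay below every sample of 769. From 110 to 120 Mb, for example, the ratio was 1.27, 1.26 and 1.24 in 786, against 1.46, 1.40 and 1.74 in 769. From 100 to 110 Mb the lines only just separated, with 1.010 in 786 AA replicate 1 and 1.011 in the 769 control. These windows are descriptions with no test of their own. The stretch was picked with the values seen, and windows of other chromosomes were not compared.

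**Figure D3:**
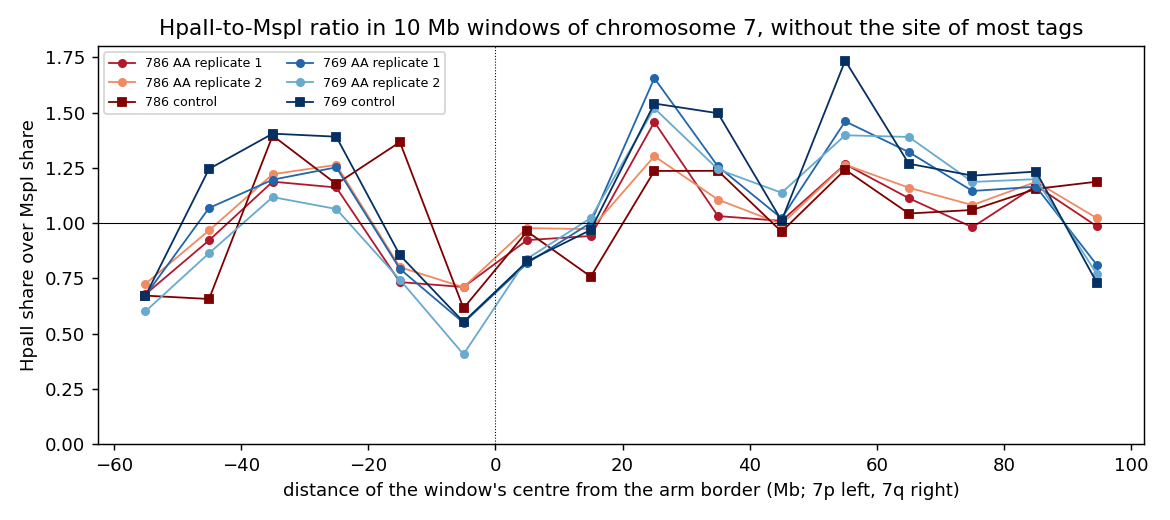
HpaII share over MspI share in 10 Mb windows of chromosome 7 without the site of most tags, by distance from the arm border, with 1 line per DNA sample. The 786 samples lie above the 769 samples next to the border and at the right end, and below them over most of 7q between.

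CCGG density ordered the ratio in every sample. Sites with 1 to 2 reference CCGG in 1 kb, themselves included, had ratios of 0.456 and 0.479 with AA and 0.432 in the control of 786, and 0.295 and 0.224 with AA and 0.149 in the control of 769. Where 16 or more stood together the ratio was 2.18 and 2.43 with AA and 2.96 in the control of 786, and 2.61 and 2.53 with AA and 3.74 in the control of 769. In both lines AA samples were thus above control at sparse sites and below it at the most crowded ones. As the ratio is made of shares, a rise at sparse sites by itself lowers it at crowded ones. Whether methylation itself changed at crowded sites was not tested. The log2 of the sparse over the dense ratio was higher with AA by 0.90 without the site of most tags and by 1.59 with it (exact permutation within lines, p = 0.111 both times, the smallest possible). Between lines it was 1.30 higher in 786 without that site (exact permutation, p = 0.1) and 1.37 with it (exact permutation, p = 0.3). With the site, that value was 0.54 without the 769 control, 0.98 without 786 AA replicate 1 and 2.00 without 769 AA replicate 2. Other chromosomes gave sparse-site ratios of 0.558 and 0.491 with AA and 0.479 in the control of 786, and 0.320 and 0.311 with AA and 0.158 in the control of 769, and nothing particular to chromosome 7 was tested here.

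**Figure D4:**
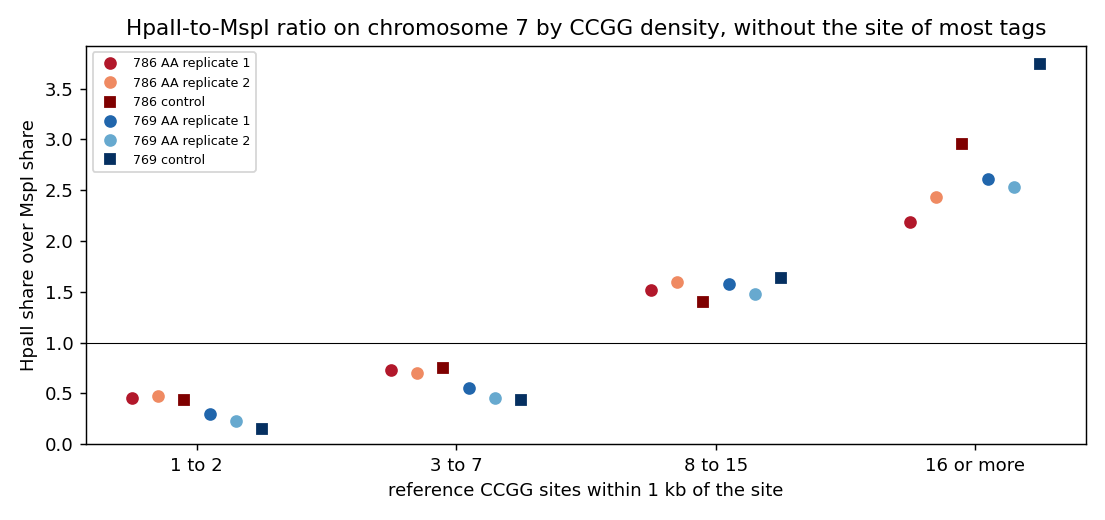
HpaII share over MspI share on chromosome 7, without the site of most tags, for 4 classes of CCGG density, with 1 point per DNA sample. The ratio climbs from the sparse to the crowded sites in all 6 samples, and the controls stand highest of their line in the last class.

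The lower ratio of 7p held at sparse and medium densities. At sites with 3 to 7 CCGG in 1 kb, 7p had 0.609, 0.583 and 0.509 in 786 and 0.465, 0.328 and 0.373 in 769. At the same density 7q had 0.795, 0.764 and 0.880 in 786 and 0.624, 0.561 and 0.478 in 769. In the class of 8 to 15, 7p lay between 1.03 and 1.25 and 7q between 1.57 and 2.01 over the 6 samples. At 16 or more the arms overlapped, with 2.21 to 3.85 on 7p and 2.17 to 3.73 on 7q.

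Single sites with enough MspI tags could be scored. For 1230 chromosome 7 sites where no MspI library had under 10 tags, each site got a score from 0 (no HpaII tag) to 100 (HpaII tags only), where 50 means equal shares. The mean score was 27.4 and 27.0 with AA, against 13.3 in the control of 786, and 22.7 and 15.1 with AA, against 10.0 in the control of 769. The 4 AA samples each lay above the control of their line, by 11.4 on average (exact permutation within lines, p = 0.111, the smallest possible). HpaII tags were present at 690 and 683 of the sites with AA, against 242 in the control of 786, and at 804 and 413 with AA, against 293 in the control of 769. At 235 sites (19.1%) no HpaII library had a tag, and 110 (8.94%) had one in all 6, against 19.2% and 8.21% of the 17290 such sites on all chromosomes. Scores above 50 in all 6 samples were seen at 23 sites (1.87%), and 695 (56.5%) stayed under 50 throughout, against 1.89% and 54.3% on all chromosomes. Another 22 sites (1.79%) were above 50 in the 3 samples of 786 and under 50 in those of 769, and 3 (0.244%) the other way, against 1.22% and 0.549% on all chromosomes. With AA against control, 40 sites (3.25%) were above 50 in the 4 AA samples and under 50 in both controls, and 2 (0.163%) the other way, against 3.19% and 0.0578% on all chromosomes.

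Between the lines, 884 bins of 100 kb on the chromosome were tested for HpaII relative to MspI. In 786, 17 were higher than in 769 and 2 lower (edgeR, adjusted p under 0.05), against 0.813% and 0.128% of all 15623 tested bins. Of the 17 rises, 8 were on 7p and 9 on 7q, and the last 5 Mb held 6 of them. Leaving out 769 AA replicate 2 left 0 calls of either kind, so the count rests on that sample, and leaving out 786 AA replicate 2 gave 34.

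Among bins where no library held under 10 HpaII tags, the rises of smallest p lay near the tip of 7p and beside the centromere. At chr7:4200001-4300000 the ratio was 1.31, 1.53 and 0.390 in 786, against 0.166, 0.139 and 0.0767 in 769 (log2 fold 2.89 ± 0.38, edgeR adjusted p = 0.0056). Its neighbour chr7:4100001-4200000 had 2.37, 1.06 and 1.31 in 786, against 0.280, 0.0625 and 0.232 in 769 (log2 fold 3.08 ± 0.58, edgeR adjusted p = 0.023). At chr7:57000001-57100000 the ratios were 0.768, 0.893 and 0.790 in 786, against 0.313, 0.205 and 0.102 in 769 (log2 fold 2.01 ± 0.39, edgeR adjusted p = 0.026). The lines did not overlap in any of these 3 bins.

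The largest fitted rises had few or no HpaII tags in 769. The bin chr7:29300001-29400000 held 266, 140 and 14 HpaII tags in 786 and 0 in each sample of 769, which with a floor of 3 tags over the line is at least 112-fold higher in 786 (edgeR adjusted p = 0.023). At chr7:69900001-70000000 the tags were 172, 127 and 13 in 786, against 2, 0 and 1 in 769, a pooled fold of 96.5 (exact Poisson interval at 95% 33.0 to 468, counting error only, edgeR adjusted p = 0.034). The others of the 5 largest were chr7:136300001-136400000, chr7:63200001-63300000 and chr7:56800001-56900000, with log2 folds of 7.51, 5.18 and 4.99 and edgeR adjusted p-values of 0.031, 0.025 and 0.048. At chr7:136300001-136400000 1 site held 71.5 to 96.0% of the HpaII tags of the bin in the 786 samples.

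Falls in 786 were fewer. The bin chr7:127600001-127700000 held 0, 1 and 0 HpaII tags in 786, against 178, 120 and 440 in 769, with 455 to 832 MspI tags in 786 (edgeR adjusted p = 0.0023). The promoter window of LRRC4, the gene of a synaptic leucine-rich repeat protein, lies there. Its 5 listed sites, from position 127671451 to 127671713, held 0, 1 and 0 HpaII tags in 786, against 13, 1 and 122 in 769. At chr7:158700001-158800000 the ratio was 0.0549, 0.0585 and 0.0487 in 786, against 0.236, 0.430 and 0.209 in 769 (log2 fold -2.49 ± 0.45, edgeR adjusted p = 0.020). The next smallest p in this direction was at chr7:152000001-152100000, with 0 tags in each 786 sample and 137, 50 and 120 in 769 (edgeR adjusted p = 0.061). Where no library held under 10 HpaII tags, the bins at chr7:2200001-2300000, chr7:1100001-1200000 and chr7:148800001-148900000 came nearest to a fall, with log2 folds of -0.94, -0.75 and -0.87 and edgeR adjusted p-values from 0.23 to 0.25.

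With AA against control over both lines, 3 chromosome 7 bins rose and none fell (edgeR), against 0.294% and 0.0128% of all tested bins. All 3 calls were lost with either AA sample of 769 left out. On chromosome 7, 107 bins (12.1%) had an unadjusted p under 0.05, against 12% of all bins, and DESeq2 called 31 higher (3.51%) and 12 lower (1.36%), against 3.05% and 0.518% of all bins. The median log2 fold was 0.52 over the chromosome 7 bins and 0.59 over all bins. Where every library held 10 or more HpaII tags these medians were 0.0996 and 0.049, and in thinned libraries 0.19 and 0.22. At chr7:600001-700000 the HpaII tags were 238 and 77 with AA, against 1 in the control of 786, and 265 and 118 with AA, against 2 in the control of 769, with between 1428 and 4898 MspI tags (log2 fold 6.02 ± 0.76, edgeR adjusted p = 0.026). At chr7:200001-300000 the tags were 110 and 56 with AA, against 0 in the control of 786, and 138 and 109 with AA, against 12 in the control of 769 (log2 fold 3.71 ± 0.65, edgeR adjusted p = 0.037). Both ratios stayed low with AA, from 0.0720 to 0.112 in the first and from 0.0418 to 0.128 in the second. The third bin, chr7:141500001-141600000, is that of the site of most tags, which held nearly all of its tags (log2 fold 2.85 ± 0.54, edgeR adjusted p = 0.047).

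Nearest to a fall with AA were chr7:49800001-49900000, chr7:156800001-156900000 and chr7:98900001-99000000, with log2 folds of -3.12, -1.53 and -1.55 and edgeR adjusted p-values of 0.057, 0.063 and 0.083. Where no library held under 10 HpaII tags, chr7:155300001-155400000 and chr7:4200001-4300000 came next to a rise, with log2 folds of 1.54 and 1.42 and edgeR adjusted p-values of 0.13 and 0.17.

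In 769, AA went with 41 rises and 3 falls on chromosome 7 (edgeR), against 3.58% and 0.147% of all bins. Of the 41, 16 were on 7p and 25 on 7q, 14 had 0 HpaII tags in the control, and the median was 263 and 71 tags with AA, against 2 in the control. In 25 of the 41 (61%) the ratio was also above control in both AA samples of 786, close to the 56.2% over all 884 tested chromosome 7 bins. Thinned to the smallest library of each enzyme, the libraries gave 3 rises and 1 fall. The 5 largest rises all had 0 HpaII tags in the control of 769. With the floor of 3 tags, they were at least 134-fold higher with AA at chr7:93500001-93600000, 78.1-fold at chr7:132000001-132100000, 58.5-fold at chr7:112500001-112600000, 56.8-fold at chr7:54900001-55000000 and 62.4-fold at chr7:36300001-36400000 (edgeR adjusted p from 0.0033 to 0.037). At chr7:132000001-132100000 1 site held 98.5 and 100% of the HpaII tags in the AA samples of 769.

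Of the 41 rises in 769, 6 were in bins where every library held 10 or more HpaII tags. Among these the smallest p was that of the bin of the site of most tags (log2 fold 4.25 ± 0.50), and chr7:151000001-151100000 came next. Its ratio was 1.13 and 0.645 with AA, against 0.0600 in the control of 769 (log2 fold 3.85 ± 0.57, edgeR adjusted p = 0.0032). At chr7:154600001-154700000 it was 0.527 and 0.193 with AA, against 0.0335 in the control (log2 fold 3.29 ± 0.63, edgeR adjusted p = 0.011). The 3 falls were at chr7:45400001-45500000, chr7:155700001-155800000 and chr7:98900001-99000000, with log2 folds of -5.19, -2.46 and -1.76 and edgeR adjusted p-values of 0.0498, 0.030 and 0.026. In the first of them, 1 site held all 72 HpaII tags of the control. The AA count in 769 came to 71 calls without AA replicate 2. At chr7:49800001-49900000 the log2 fold was -1.42 and the call was missed (edgeR adjusted p = 0.072).

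In 786, AA went with no rise and 4 falls on chromosome 7 (edgeR), against 0.122% and 0.262% of all bins, with 91 chromosome 7 bins (10.3%) at an unadjusted p under 0.05, against 12.7% of all bins. DESeq2 called 3 rises (0.339%) and 9 falls (1.02%), against 0.243% and 1.09% of all bins. Thinned libraries gave 9 rises and 6 falls, and leaving out AA replicate 1 or 2 gave 8 or 11 calls. Each fall rested on 1 site of the control. At chr7:49800001-49900000 the ratio was 0.415 and 0.394 with AA, against 12.6 in the control, where 1 site held 94.6% of 147 HpaII tags (log2 fold -4.88 ± 0.44, edgeR adjusted p = 0.00025). The falls at chr7:44700001-44800000, chr7:157500001-157600000 and chr7:156800001-156900000 had log2 folds of -3.70, -2.89 and -2.11 and edgeR adjusted p-values of 0.0022, 0.012 and 0.012, and 1 site held 96.7, 87.9 and 89.5% of the HpaII tags in the control. Nearest to a rise were chr7:158900001-159000000, chr7:2300001-2400000 and chr7:103900001-104000000, with edgeR adjusted p-values of 0.077, 0.10 and 0.11. Where every library held 10 or more HpaII tags, those were chr7:4200001-4300000, chr7:1300001-1400000 and chr7:5500001-5600000, with log2 folds of 1.93, 1.38 and 1.39 and edgeR adjusted p-values from 0.15 to 0.18.

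The AA contrast itself differed between 786 and 769 in 9 chromosome 7 bins by the interaction test (edgeR), 1 higher and 8 lower in 786, against 0.166% and 0.819% of all bins. The bin higher in 786 was chr7:2300001-2400000, with ratios of 0.568 and 0.938 with AA, against 0.0364 in the control of 786, and 0.496 and 0.863 with AA, against 1.78 in the control of 769 (log2 difference 5.83 ± 1.13, edgeR adjusted p = 0.029). The control of 786 had 1 HpaII tag there. Of the 8 lower, chr7:151000001-151100000 had 1.01 and 1.08 with AA, against 1.49 in the control of 786, where 769 rose as given above (log2 difference -4.28 ± 0.79, edgeR adjusted p = 0.026). Nearest to the threshold among bins higher in 786 were chr7:40100001-40200000 and chr7:70100001-70200000 (edgeR adjusted p = 0.0502 and 0.061). Where every library held 10 or more HpaII tags, chr7:5500001-5600000, chr7:73600001-73700000 and chr7:158200001-158300000 had log2 differences of 1.78, 2.20 and 1.68 (edgeR adjusted p from 0.13 to 0.19).

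Pooled over promoter windows, the ratio was well above 1 in every sample, that is, little methylation relative to the rest of the sample. Only windows with at least 4 CCGG could be placed, so they stand at crowded sites, where the ratio was high in general. Of 1779 RefSeq promoters on the chromosome, 414 had at least 4 CCGG and 361 of these matched 1 place of the site list, in the same order as in GRCh38.p14. After merging windows with the same sites and leaving out HOXA, 343 windows remained. Their pooled ratio was 2.55, 2.99 and 2.70 in 786 and 2.96, 2.81 and 4.93 in 769. On 7p it was 2.53, 3.14 and 2.75 in 786 and 2.94, 2.19 and 5.06 in 769, and on 7q it was 2.56, 2.94 and 2.67 in 786 and 2.97, 3.31 and 4.83 in 769. The arms overlapped at promoters. Of the 152 windows with enough tags to test, 44 had a ratio above 1 in all 6 samples and 1 below 1 in all 6. The same count was not made over the promoters of all chromosomes. The control of 786 had 0 HpaII tags in 60 of them, and 9 had 0 in the control of 769.

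Between the lines, 2 of the 152 promoters were lower in 786 and none higher (edgeR), against 0.308% and 0.088% of all 2274 tested promoters. VWC2 encodes a secreted antagonist of bone morphogenetic proteins. Its window, 6 sites from position 49813014 to 49813274, held 0 HpaII tags in each 786 sample, against 91, 105 and 57 in 769, where MspI tags were 91, 109 and 52 in 786 and 81, 61 and 13 in 769. With a floor of 3 tags over the line this is at least 122-fold lower in 786 (edgeR adjusted p = 0.0059), and 5 of the 6 sites had HpaII tags in at least 2 samples of 769. GALNT17 encodes a transferase that adds N-acetylgalactosamine to proteins. Its 6 sites, from position 70596904 to 70597089, held 0 HpaII tags in each 786 sample, against 84, 104 and 54 in 769, with 78, 44 and 83 MspI tags in 786 and 22, 24 and 137 in 769. The same floor gives at least 122-fold lower in 786 (edgeR adjusted p = 0.0070). In 769 the site at 70597035 held 44, 27 and 54 of these tags and that at 70597089 held 24, 77 and 0, the last capitals printed above. At 70597035 the samples of 786 had only 1, 4 and 29 MspI tags. At 70597089 they had 76, 19 and 36, while the 769 control had 72 MspI tags beside its 0 HpaII tags. The window sums thus partly set HpaII tags at 1 site against MspI tags at another. The 0 of the 786 control adds little at both promoters, since that library held a median of 2 HpaII tags over the tested chromosome 7 promoters. Neither promoter was called in thinned libraries or without 786 AA replicate 1. Once thinned, only 92 chromosome 7 promoters had enough tags to test, against 152, so a missing call there can mean no test.

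In 769, AA went with higher ratios at 7 chromosome 7 promoters and lower at none (edgeR), against 2.42% and 0.088% of all tested. EGFR, the receptor of epidermal growth factor, had 272 and 39 HpaII tags with AA, against 1 in the control of 769, while MspI tags were 79 and 28 with AA, against 222 in the control. Its ratio was 2.77 and 1.82 with AA, against 0.0102 in the control of 769, a pooled fold of 255 (exact Poisson interval at 95% 45.8 to 10080, counting error only, edgeR adjusted p = 0.0090). In 786 the EGFR ratio was 1.08 and 5.91 with AA, against 1.52 in the control, on 201, 139 and 5 HpaII tags. 1 site at position 55086564, the second in capitals above, held 214 of the 272 tags, 38 of the 39 and the only control tag in 769. MspI tags at that site were 72 and 1 with AA, against 222 in the control of 769. The other MspI tags of AA replicate 2, 10 and 17, lay at sites with 0 and 1 HpaII tags. Its window ratio thus sets HpaII tags at 1 site against MspI tags at others.

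The other 6 were SAMTOR, whose product senses S-adenosylmethionine for the mTOR pathway, RBM33 and its divergent transcript RBM33-DT, which share sites, BUD23, a ribosomal RNA methyltransferase gene, BCL7B, a subunit gene of the SWI/SNF complex, and the antisense gene SNX10-AS1. SAMTOR had 151 and 67 HpaII tags with AA, against 0 in the control of 769, at least 55.9-fold higher with AA (edgeR adjusted p = 0.0052). RBM33 had 217 and 65 with AA, against 0 in the control, at least 52.2-fold higher (edgeR adjusted p = 0.0052). BUD23 had 80 and 40 with AA, against 0 in the control, at least 54.7-fold higher (edgeR adjusted p = 0.020). BCL7B had 197 and 272 with AA, against 18 in the control, with ratios of 9.34 and 20.9 with AA, against 0.522 in the control (log2 fold 5.31 ± 1.39, edgeR adjusted p = 0.040). In SNX10-AS1 there were 20 and 10 with AA, against 0 in the control, at least 10.9-fold higher (edgeR adjusted p = 0.033). Thinned to the smallest library of each enzyme, the libraries gave none of the 7. Only 92 chromosome 7 promoters had enough tags to test there, so some of the 7 may not have been tested.

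In 786, AA went with no called promoter on chromosome 7 (edgeR), against 0.044% of all tested, and DESeq2 called none. An unadjusted p under 0.05 was found for 29 of the 152 (19.1%), against 16.9% of all tested promoters. The lists of pathway genes gave few promoters to compare. Of 53 genes on 5 lists (growth factor signalling, developmental regulators, chromatin and replication, housekeeping and genes silenced by methylation in some cancers), 14 could be placed and 7 tested. None was called between the lines, EGFR alone rose with AA in 769, and none was called with AA in 786. The median log2 fold of the 7 in 786 over 769 was -0.37, against -0.33 over all promoters tested, and with AA in 769 it was -1.08, against 0.09 over all. TBX20, a T-box gene of heart development, had ratios of 0.152, 0.390 and 0 in 786, against 0.761, 0.507 and 7.47 in 769, and was not called (edgeR adjusted p = 0.93). EZH2 had 5.99, 2.34 and 10.7 in 786 and 2.75, 4.17 and 0.811 in 769, and 1 of the 2 windows of PDGFA, a ligand gene, had 2.87, 1.78 and 1.48 in 786 and 1.62, 0.571 and 1.31 in 769. CAV2, KMT2C and GBX1 were the other 3 tested, and their ratios overlapped between the lines.

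**Figure D5:**
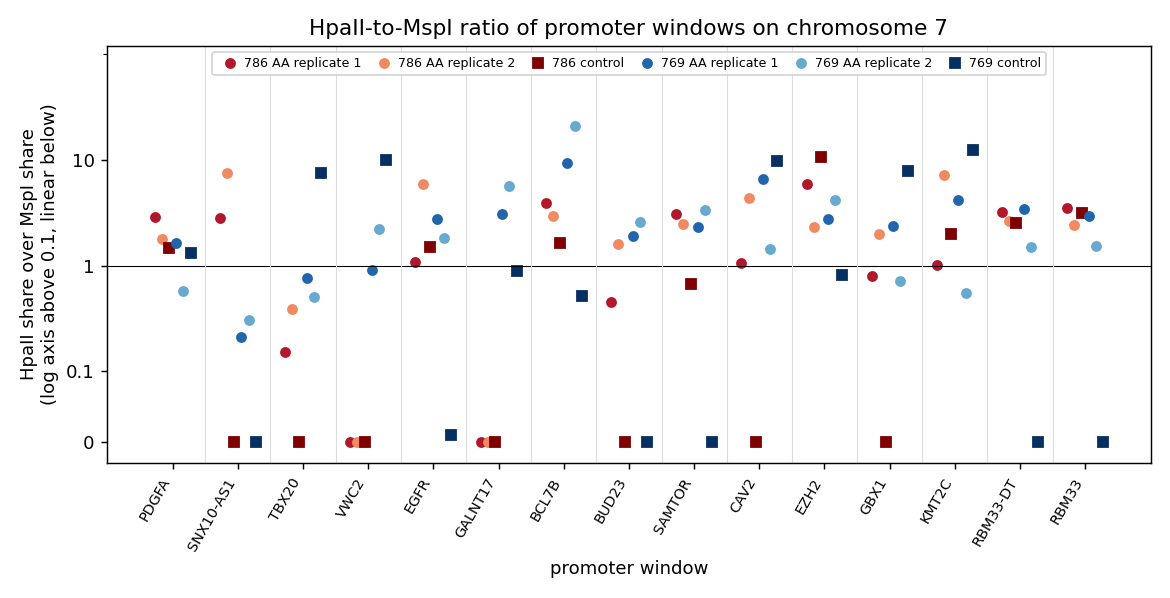
HpaII share over MspI share of 15 promoter windows on chromosome 7, the 7 on the gene lists that were tested and those called between the lines or with AA in 769, with 1 point per DNA sample on an axis that is logarithmic above 0.1 and linear below. VWC2 and GALNT17 are at 0 in the 3 samples of 786, and EGFR, SAMTOR, BUD23, RBM33, RBM33-DT and SNX10-AS1 are at or near 0 in the control of 769.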

How the data were processed

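Tags at CCGG sites were read in 12 libraries. The deposited files hold, per site, expected counts of tags on the left, on the right and as their sum, which the authors had not normalized as far as the files show. Coordinates are of hg19, per the submitters' processing notes, while the name of an aligner was not given in the sources used here. Column sums per library ran from 189704 to 12442031 tags. Intervals and floors cover counting error only.

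Site sums were added up in bins of 1 Mb (at least 20 tags in every MspI library) and 100 kb (at least 10 tags in every MspI library and 10 HpaII tags in all), rounded, and fitted over chromosomes 1 to 22 and X with the quasi-likelihood test of edgeR 4.0.16 (R 4.3.3), with TMM within each enzyme, which was checked on simulated data. In that simulation each fit had 200 changed features. Of 8-fold changes in 100 kb HpaII bins, 6% were recovered for AA over both lines and 14.5% between lines. For promoters between lines it was 34% at 8-fold, and for MspI bins of 1 Mb between lines 64.5% at 1.5-fold. Few or no HpaII calls therefore do not show that changes were absent. HpaII fits had terms for the DNA sample, the enzyme, and the enzyme by line and by AA. Benjamini-Hochberg adjustment ran over all features of a fit, and an adjusted p under 0.05 was a call. Each line has 1 control, assumed to vary like the other samples. Whole chromosome and arm sums used library totals. Single values were tested by exact two-sided permutation. Python 3.11.15 was used for sites and figures.

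No hg19 annotation was used here. RefSeq promoters (GRCh38.p14, 300 bases) were placed on the site list where at least 4 listed sites matched their CCGG spacing and the running site numbers, at 1 place of the chromosome, an analysis added after the data were seen. Matched against chromosomes 6 and 12 instead, 1 of them found a place on each. A bin was named by its size of change: per contrast the 5 largest rises and falls past the threshold (8 for copy number) with all AA samples on 1 side of their control, or with lines that do not overlap, then the smallest p-values to 3 in each direction, and the 3 smallest p-values each way where no library held under 10 HpaII tags. Members, lists and classes were chosen with earlier results of these data known.

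Alternatives were library totals without TMM, DESeq2 1.42.0, other filters, thinning, other bin sizes, sites with a tag, density subsets, a replicate block, fewer model terms, leaving out each DNA sample, and leaving out the site or the 100 sites of most tags.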

Additional observations from a re-analysis of the deposited data

Results flagged for a closer look

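The AA contrast differed between 786 and 769 in 9 of 884 bins (1.02%) of 100 kb on chromosome 7 by the interaction test of edgeR. Over all chromosomes the same test called 154 of 15623 bins, a share close to that of chromosome 7. The log2 difference, 786 minus 769, was 5.83 at chr7:2300001-2400000. It was -12.11 at chr7:93500001-93600000, -8.13 at chr7:152500001-152600000, -6.24 at chr7:155900001-156000000, -5.92 at chr7:1900001-2000000 and -5.06 at chr7:3000001-3100000. It was -3.47 at chr7:49800001-49900000, -3.73 at chr7:44700001-44800000 and -4.28 at chr7:151000001-151100000. The edgeR adjusted p-values lay between 0.014 and 0.049.

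Low tag numbers in a control stand beside most of them. The control of 769 held 0, 1, 1, 3 and 15 HpaII tags in the bins starting at 93500001, 152500001, 155900001, 1900001 and 3000001, and that of 786 held 1 tag in the bin starting at 2300001. In the bins starting at 49800001 and 44700001, 1 site held 94.6 and 96.7% of the HpaII tags in the control of 786. The part of these numbers in the differences was not tested.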

How the results depend on the processing

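Counts of called chromosome 7 bins or promoters depended on the setting, and the cause was not tested. Counts over all chromosomes moved too, so these changes were not particular to chromosome 7. By DESeq2 all 15623 HpaII bins gave 1201 calls between lines (147 in the main fit), 557 with AA (48) and 2416 in 769 (582). For 786 they were 209 (60) and for the interaction 1103 (154). Copy number gave 727 of 2862 bins in the main fit and 488 of 2271 with sites. Copy number between lines (91 of 155 tested bins) fell to 54 of 130 with numbers of sites in place of tags and to 11 of 75 with sites of 16 or more in 1 kb. Tested HpaII bins numbered 884, against 427 with sites, 1554 unfiltered, 311 with 10 HpaII tags everywhere, 156 in 1 Mb bins and 643 thinned. Lower counts were thus not always lower shares. With 10 HpaII tags everywhere and in 1 Mb bins, 3.54% and 3.85% were called between lines, against 2.15%. For AA in 769 these were 5.47% and 4.49%, against 4.98%. HpaII bins between lines (19) came to 76 by DESeq2, 33 with sites, 45 unfiltered, 11 with 10 HpaII tags everywhere, 6 in 1 Mb bins, 7 with no treatment term and 0 to 34 with a sample left out. For AA over both lines (3) the counts were 43, 0, 35, 1 and 0 in that order, 0 with no line term and 0 to 22 with a sample left out. For AA in 769 (44) they were 148, 0, 79, 17 and 7 in that order, 4 in thinned libraries and 41 to 71 with a sample left out. For AA in 786 (4) they were 12 by DESeq2, 15 thinned, 0 with sites, 21 unfiltered and 4 to 11 with a sample left out. The interaction (9) gave 61 by DESeq2, 0 with sites, 37 unfiltered, 4 with 10 HpaII tags everywhere and 4 to 24 with a sample left out. Promoters between lines (2) came to 5 by DESeq2, 0 thinned and 0 to 2 with a sample left out, those with AA in 769 (7) to 15, 0 and 8 to 11, and those with AA in 786 (0) to 0 to 1 with a sample left out. MspI bins with AA (0) gave 0 to 1, with 1 call without 769 AA replicate 2.

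With the replicate block, HpaII counts were 38 between lines, 23 with AA, 87 in 769, 23 in 786 and 44 for the interaction, and promoters with AA were 11 in 769 and 3 in 786. The labels do not say what the AA numbers pair, and deviations of same-numbered samples correlated at -0.203 over 155 MspI bins and -0.0298 over 884 HpaII bins, from 2 pairs.

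The 7p log2 fold of -0.06 was -0.026 with TMM, -0.028 with sites, -0.056 at sites of 1 to 7 in 1 kb, 0.016 at 16 or more, and -0.074 to -0.046 with a sample left out, called in none of these. The arm balance turned to 0.16 with sites for AA, and between lines to 0.061 with sites, 0.125 without 100 sites, 0.127 without the site of most tags and -0.18 to 0.13 with a sample left out. The chromosome ratio with AA turned to -0.11, -0.026 and -0.046 in the first 3 of these settings. With sites, the AA value in 786 in the bin starting at 156800001 was 0.38, and the interaction was 0.12 in that starting at 49800001 and 0.045 in that at 44700001. Copy number of 7q and of the whole chromosome kept direction and call under every setting run. The arm difference in copy number, the chromosome ratio between lines, CCGG density and single sites kept their direction, where no permutation p could pass 0.05, and the density difference between lines ran from 0.54 to 2.00 with a sample left out (exact permutation p from 0.1 to 0.7).

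HpaII depth is a limit: 286 of 884 bins had 0 HpaII tags in the control of 786, and 211 in that of 769.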
